A study of Mus musculus with 9 samples.

Results

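The cells described here carried RNA of at least 4 of 9 oligodendrocyte precursor genes, Gpr17, Neu4, C1ql1, Enpp6, Pdgfra, Cspg4, Olig1, Olig2 and Vcan, and are called members. A gene counted as present when a cell held at least 1 UMI (unique molecular identifier, 1 tagged RNA molecule) of it. Candidate cells were the 10000 deepest barcodes of a library, and those with 200 to 6000 genes and under 15% mitochondrial UMIs were kept. Of 64617 kept cells, 2179 were members, with 2054 of 35482 cells in tumors and 125 of 29135 in control brains. Members of tumors were divided into 1202 with a UMI of the fusion allele (from the added sequences Luc, IRES or ZFTA-RELA_Fusion_1, called a transgene UMI) and 852 without one. Members were thus selected on their UMIs of the 9 genes, and values of these genes are a description and were not tested.

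The libraries came from mice of 6 to 8 weeks, profiled with droplet single-cell RNA sequencing from the 5′ end of transcripts. Sample titles of tumors and controls alike carry the word Endoint, read here as endpoint. The 5 tumor samples were NestinCreERT2;Fus1 mice, which carry a conditional, Nestin-driven ZFTA-RELA fusion allele that NestinCreERT2 recombines in embryonic radial glia, giving the ependymoma model EP ZFTA-RELA. The 4 control samples were brains of NestinCreERT2;TdT mice, which share the NestinCreERT2 allele and are labelled with the TdTomato reporter allele and not with Fus1. Tissue was dissected without choroid plexus, cleared of myelin debris on Percoll and sorted for live cells, with antibodies to CD45 and Ter119 in the sort. Cre expressed in radial glia also marks their descendants, so the recombined allele may be in any lineage that radial glia form. The allele is Nestin-driven, so its RNA, and with it a transgene UMI, need not be present in every cell that carries it.

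Matrices held 101060608 to 178086164 UMIs in controls and 14967680 to 69411387 in tumors. The control libraries stood apart from the tumors in several ways that bear on each comparison between them. UMIs of at least 4 of 9 neuron markers were present in 97.6% of control members (90.9% to 100% by mouse) and in 7.94% of tumor members (1.89% to 43.4%). Kept cells with fewer than 4 numbered 356 of 8130, 45 of 7428, 86 of 6427 and 22 of 7150 in controls 1 to 4. In tumors 1 to 5 they numbered 1579 of 2845, 4218 of 5952, 5794 of 6698, 9880 of 9994 and 8958 of 9993. Nearly all control cells thus held 4 or more, members or not. Mitochondrial UMIs had medians of 9.39% to 12.4% in control members and 2.34% to 8.31% in tumor members. Among controls, replicate 1 had 11 members with a median of 1673 UMIs, where controls 2, 3 and 4 had 37, 42 and 35 members with medians of 3118, 2701.5 and 3314 UMIs. No member barcode was shared in 28 pairs of libraries, which had 3 to 31 kept barcodes in common.

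Oligodendrocyte precursors arise from radial glia, keep dividing in the adult brain and make myelinating oligodendrocytes. Precursors that still divide carry the receptor Pdgfra and the proteoglycan Cspg4, while Gpr17, Bcas1 and Enpp6 mark cells that have left that state and have begun to differentiate. Olig1, Olig2 and Sox10 are transcription factors of the whole lineage, and Olig2 is also used by other glial progenitors. Mbp and Mog encode proteins of the myelin sheath that follows.

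Members were a larger share of kept cells in every tumor than in any control. The share was 0.135%, 0.498%, 0.653% and 0.490% in controls 1 to 4 and 1.05%, 3.68%, 1.31%, 15.9% and 1.32% in tumors 1 to 5. The groups did not overlap, and tumor replicate 4 alone held 1585 of the 2054 tumor members. Tumors averaged 4.65% ± 6.36 (SD, n = 5) against 0.444% ± 0.219 (SD, n = 4) for controls, a difference of 4.20 percentage points (two-sided exact permutation test, p = 0.151, adjusted over 4 such tests 0.201). Leaving out tumor replicate 4 gave 1.40 percentage points with an exact permutation p of 0.0286, the smallest that 4 against 4 mice allow. In cells thinned to 2000 UMIs the shares were 0.0793%, 0.229%, 0.358% and 0.210% in controls and 1.60%, 1.64%, 3.33%, 8.61% and 1.21% in tumors. The thinned difference was 3.06 percentage points with an exact permutation p of 0.0317. Neuron-marked cells made up most control cells, and few control cells or members remained without them. Among cells without 4 or more neuron markers the member share was 0.281%, 4.44%, 0% and 0% in controls (1 of 356, 2 of 45, 0 of 86 and 0 of 22 cells) and 1.20%, 2.94%, 1.40%, 15.7% and 1.25% in tumors, so control 2 lay above 4 of the 5 tumors. That difference was 3.32 percentage points with an exact permutation p of 0.476. With so few control cells left, this setting cannot show whether the order of the groups depends on neuron-marked cells.

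**Figure D1:**
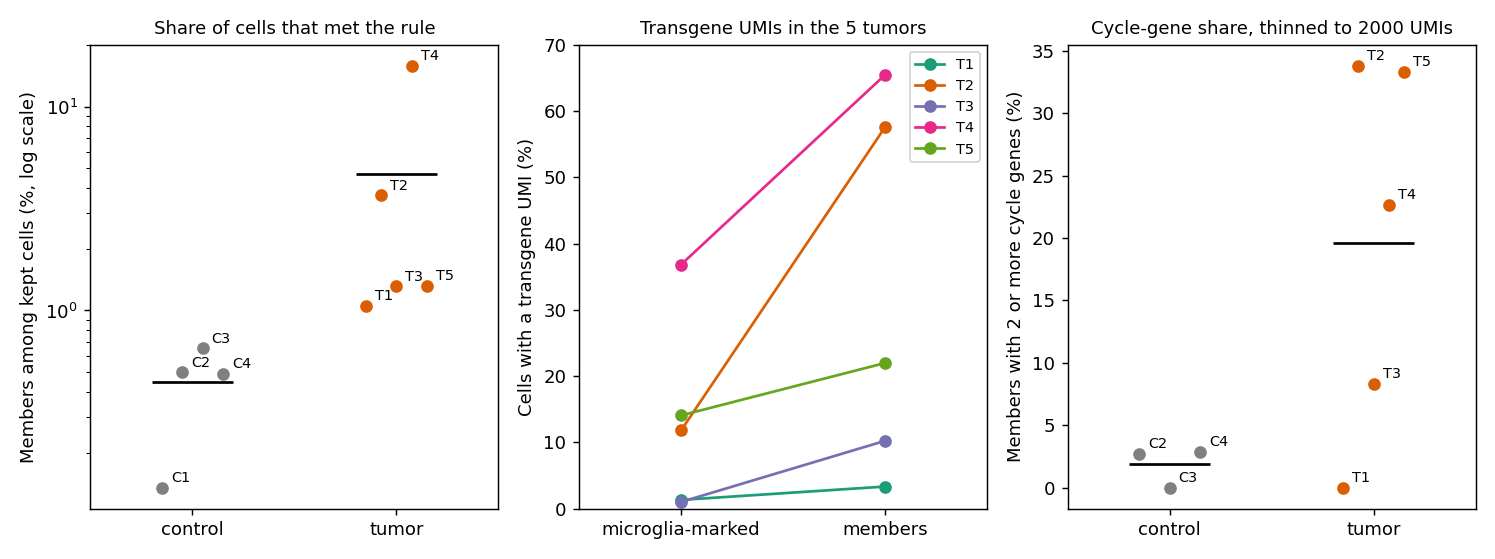
Left, share of kept cells that were members, on a log scale, with 1 point per mouse (C control, T tumor) and the group mean as a line. Middle, share of cells with a transgene UMI in microglia-marked cells and in members, with a line for each of the 5 tumors. Right, share of members with UMIs of 2 or more cycle genes after thinning to 2000 UMIs, for mice with at least 10 such members. All 5 tumors lie above the 4 controls on the left and rise from left to right in the middle, while tumor 1 at 0% lies among the controls on the right.

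Tumors differed in which of the 9 genes their members carried. Pdgfra was present in 86.7% and 78.8% of members in tumors 1 and 5, close to the 63.6% to 80.0% of the 4 controls, and in 37.9%, 53.4% and 37.5% in tumors 2, 3 and 4. Gpr17, a receptor of cells leaving the dividing state, was present in 43.3%, 11.4%, 71.6%, 45.7% and 34.8% of members in tumors 1 to 5, and in 28.6% to 45.9% in controls. Tumor 3 therefore had the highest share with Gpr17 and tumor 2 the lowest. Cells with Gpr17 but no Pdgfra UMI were 35.2% of members in tumor 3 and 27.3% in tumor 4, against 6.85% to 10.0% in tumors 1, 2 and 5 and 8.57% to 16.2% in controls.

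Some members rested on the widely shared genes of the rule alone. A UMI of Olig1 was present in 97.2% of tumor members and of Olig2 in 87.7%, against 48.8% and 30.4% of control members. Members with none of Gpr17, Neu4, C1ql1, Enpp6 and Pdgfra, which met the rule through exactly Olig1, Olig2, Cspg4 and Vcan, numbered 87 in tumor 2 (39.7%), 297 in tumor 4 (18.7%), 4 in tumor 5 (3.03%) and 0 in the other mice. These cells made up 27.1% of members with a transgene UMI and 7.28% of tumor members without one. Enpp6, found in newly differentiating oligodendrocytes, was present in 23.8% and 26.1% of members in tumors 4 and 3 and in 6.06% to 10.0% in tumors 1, 2 and 5.

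**Figure D2:**
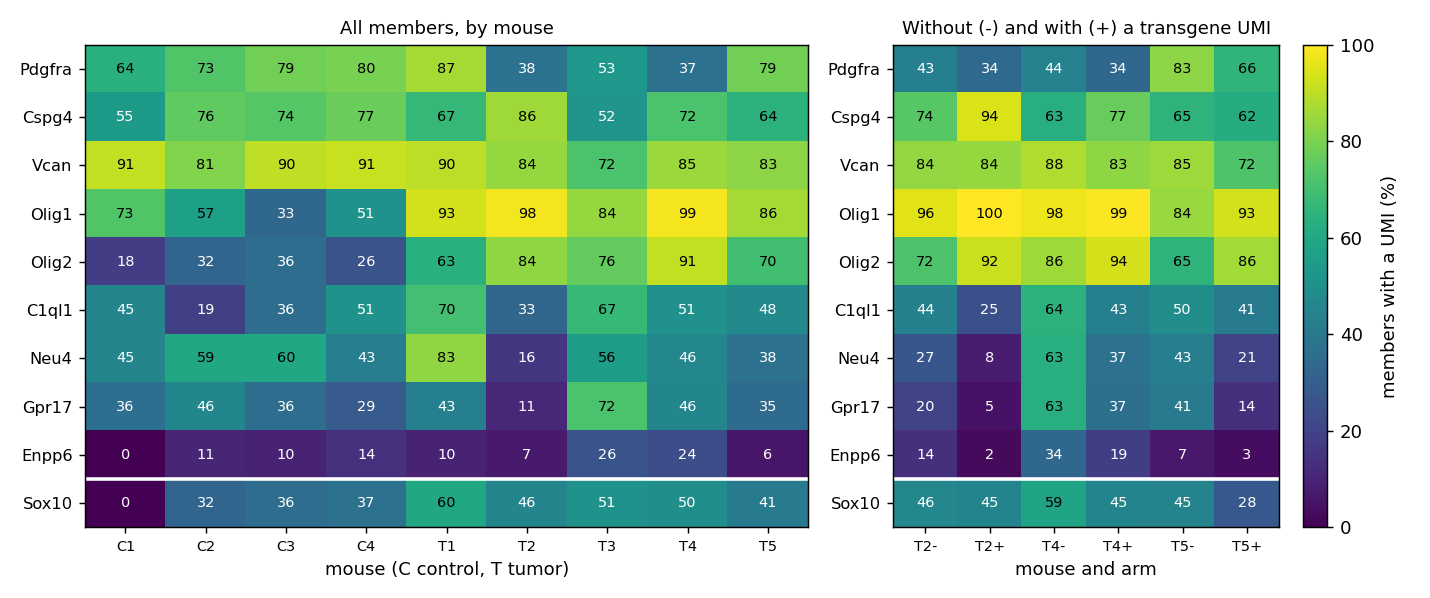
Percent of members with a UMI of each of the 9 rule genes and, below the white line, of Sox10, which was not in the rule. The left panel shows all members of each mouse and the right panel the members without (-) and with (+) a transgene UMI in tumors 2, 4 and 5. Pdgfra is at 87% in tumor 1 and 79% in tumor 5 and Gpr17 at 72% in tumor 3, and Gpr17, Neu4 and Enpp6 are lower in every + column than in its - column.

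Sox10, a lineage factor outside the rule, was used to check the name given to the cells. A Sox10 UMI was present in 0%, 32.4%, 35.7% and 37.1% of members in controls 1 to 4 and in 60.0%, 45.7%, 51.1%, 49.8% and 40.9% in tumors 1 to 5. In microglia-marked cells (non-members with UMIs of at least 4 of 10 microglia markers), which should lack Sox10, the share was 3.57% to 5.72% in controls and 0.659% to 5.34% in tumors. The median depth of those cells was 1939 to 3823.5 UMIs in controls and 934 to 4193 UMIs in tumors, against 2251.5 to 7672 UMIs in tumor members. Sox10 was thus found in members well above that background in 8 of 9 mice. In control replicate 1, 0 of 11 members had a Sox10 UMI, which allows a share of up to 28.5% (95% exact Clopper-Pearson interval, counting error only).

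The share with Sox10 was higher in cells with 6 or more rule genes than in cells with 4 in all 5 tumors, but not at every step. In tumor 4 it was 13.8% of the 1840 cells with 3 rule genes, just outside the rule, 25.8% of the 605 cells with 4, just inside, 46.0% of the 261 with 5 and 71.3% of the 719 with 6 or more. Tumor 2 had 18.9% of 428 cells with 3 rule genes, 36.1% of 147 with 4, 55.9% of 34 with 5 and 73.7% of 38 with 6 or more. In tumor 3 it was 45.2% of 31 cells with 4 rule genes, 33.3% of 18 with 5 and 64.1% of 39 with 6 or more. At 6 or more genes the 5 tumors ran from 64.1% to 73.7%. Transgene UMIs followed another course. They were present in 77.2%, 80.3%, 66.3% and 52.6% of tumor 4 cells with 3, 4, 5 and 6 or more rule genes, and in 39.2%, 31.7%, 18.2% and 10.3% of tumor 5 cells, while in tumor 3 they were present in 9.68%, 5.56% and 12.8% of cells with 4, 5 and 6 or more. Cells with 4 genes were therefore the least marked by Sox10 among members and the most marked by the transgene in tumors 2, 4 and 5.

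**Figure D3:**
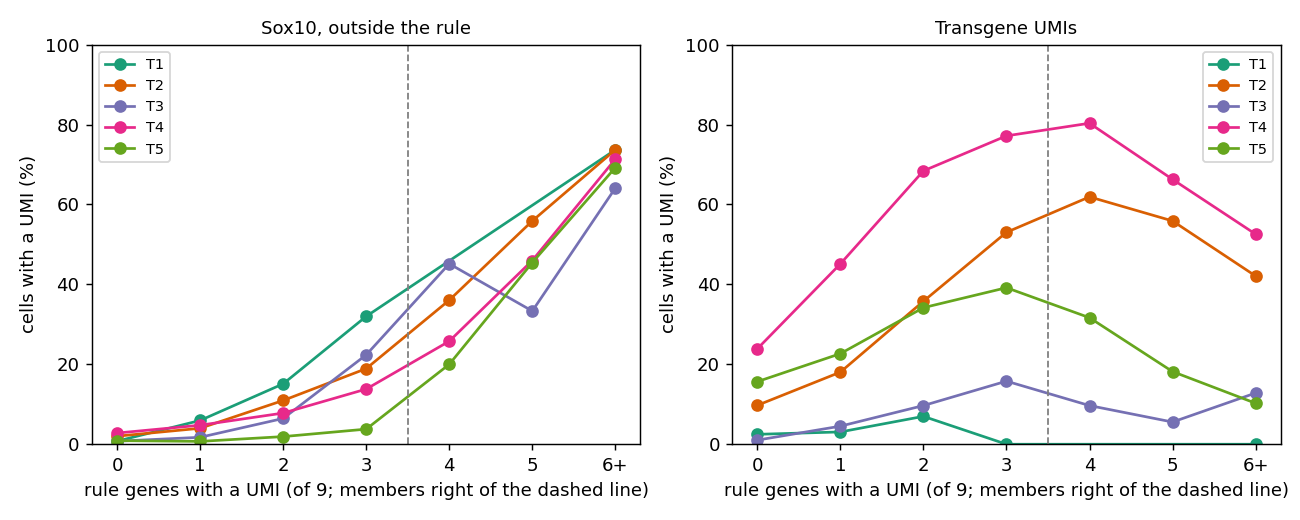
Share of cells with a Sox10 UMI (left) and with a transgene UMI (right) by the number of rule genes with a UMI, for the 5 tumors, with points drawn only for at least 10 cells and members to the right of the dashed line. Sox10 reaches 64.1% to 73.7% at 6 or more genes in every tumor, while the transgene share falls from 80.3% at 4 genes to 52.6% at 6 or more in tumor 4.

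Members also carried RNA of other cell types. UMIs of at least 4 microglia markers were present in 14.5% of tumor members, from 3.33% in tumor 1 to 16.1% in tumor 4, and in 4.80% of control members. At least 4 endothelial markers were present in 0.633% of tumor members. UMIs of at least 4 of 11 mature oligodendrocyte markers were present in 56.8% of control members and 13.7% of tumor members, with 30.7% in tumor 3 the highest of the tumors. As a rough view of RNA shared across barcodes, the 3000 shallowest barcodes of each mouse were summed (shallow barcodes, median 559 to 1338 UMIs), which may hold cells as well as free RNA. None of them was a kept cell except in tumor 3, whose matrix held 9001 barcodes and where 1853 of the 3000 were kept cells, so tumor 3 is left out of these values. Mature oligodendrocyte markers summed to 3871 to 4556 CPM (UMI counts scaled to a common total, so that the genes of a sum add up to 1e6) in the shallow barcodes of controls and to 3556, 1894, 1206 and 1797 CPM in those of tumors 1, 2, 4 and 5.

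Transgene UMIs were more frequent in members than in microglia-marked cells of the same tumor in all 5 tumors when all kept cells were used. The shares in members were 3.33%, 57.5%, 10.2%, 65.4% and 22.0% in tumors 1 to 5, and 1.32%, 11.8%, 1.01%, 36.8% and 14.1% in microglia-marked cells, which do not descend from radial glia and give the background. The mean difference was 18.7 ± 18.1 percentage points (SD, n = 5; two-sided exact sign-flip permutation p = 0.0625, the smallest that 5 mice allow). The difference was not smaller in every other setting. Against non-members with at least 4 endothelial markers it was 23.2 percentage points and positive in all 5 tumors, and with doublets removed it was 19.5. It was smaller in the settings that follow. Thinning to 2000 UMIs, which also left out shallower cells and applied the rule to the thinned counts (55 in place of 219 members in tumor 2 and 860 in place of 1585 in tumor 4), gave 5.01 percentage points, and tumors 1 and 5 then had lower shares in members (0% and 9.43%) than in microglia-marked cells (1.95% and 10.5%). With at least 5 rule genes it was 12.4 percentage points and positive in 3 of 5 tumors, and with the fusion sequence alone 4.62 percentage points and positive in 3 of 5. Cells that were neither members nor microglia-marked had transgene UMIs in 2.97%, 24.7%, 2.55%, 66.5% and 21.8% of cells in tumors 1 to 5. Members were thus above those cells in tumors 2 and 3, and within about a percentage point of them in tumors 1, 4 and 5. Tumor 1 had 1 member with a transgene UMI. No control member had one, and in control non-members 2, 11 and 16 cells of replicates 2, 3 and 4 did.

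Members with a transgene UMI had lower levels of most committed precursor and myelin genes tested (8 of 9 and 6 of 8) and higher levels of 13 of 21 cell cycle genes than members of the same tumor without one. The comparison asks how members in which a transgene UMI was seen differ from members in which none was seen. It used the summed UMIs of tumors 2, 4 and 5, which had at least 10 cells in each arm (1037 cells with and 548 without one in tumor 4, 29 and 103 in tumor 5, and 57.5% of 219 cells with one in tumor 2). In edgeR's quasi-likelihood test with the mouse as a block, 1127 of 9319 genes outside the rule passed an adjusted p of 0.05, 12.1% of those tested, with 547 higher (5.87%) and 580 lower (6.22%) in cells with a transgene UMI. Among the genes called higher, 92.5% were higher in each of the 3 mice, and among those called lower 97.6% were lower in each, against 36.6% and 54.0% of all genes tested with a log2 difference above or below 0. The same 3 mice made the calls, so this is a description. Without tumor replicate 4, the largest sum, 52 genes were called, 50 of them also called with all mice, and 1 was higher (Cenpf) and 51 lower. Without the block for mouse 0 genes passed in edgeR, with 872 at an unadjusted p under 0.05. Cells without a transgene UMI may still carry the allele, and their median depth was lower, at 3919.5 against 6363 UMIs over all tumors. Because the allele is Nestin-driven, its RNA may be absent from cells that carry the allele but do not express Nestin. The part of this in the differences between the arms was not tested. Cells with a transgene UMI may in turn lack the allele, since 11.8%, 36.8% and 14.1% of microglia-marked cells in tumors 2, 4 and 5 had one. The arms also differed in how they met the rule. Over all tumors exactly 4 rule genes were present in 600 of 1202 members with a transgene UMI and 248 of 852 without. In tumors 2, 4 and 5, 91, 486 and 19 members with one had exactly 4, and 35, 551 and 10 had more. Without one, 56, 119 and 41 had exactly 4, and 37, 429 and 62 had more. The part of rule-gene number in the precursor, committed and myelin differences below was not tested.

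Genes of oligodendrocyte precursors outside the rule were lower in cells with a transgene UMI or were not called. Of 16 tested, 0 were higher, 7 lower and 9 not called, and their median log2 difference was -0.79 against 0.01 over all genes. Of all genes tested 6.22% were lower, the share to set beside this count and those of the committed and myelin lists below. Sox10 was at 156.0, 276.2 and 270.0 CPM without and 88.96, 137.3 and 60.18 CPM with a transgene UMI in tumors 2, 4 and 5, lower in all 3 pairs. Its log2 difference was -1.07 ± 0.21 (SE, n = 3 pairs; edgeR adjusted p = 0.00487). Lhfpl3, a membrane protein typical of precursors, was at 194.0, 279.3 and 703.1 CPM without and 43.66, 84.04 and 120.4 CPM with one (log2 -1.98 ± 0.19; edgeR adjusted p = 0.000102). The matrix proteins Tnr (log2 -1.89 ± 0.18) and Matn4 (-2.09 ± 0.21) and the protocadherin Pcdh15 (-1.92 ± 0.23) were also lower. Ptprz1, a receptor phosphatase shared with radial glia, was lower by less (-0.91 ± 0.22).

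The thinned share of cells with a Sox10 UMI lay the same way. At 2000 UMIs per cell it was 20.2%, 24.2% and 12% of members with a transgene UMI in tumors 2, 4 and 5, and 30.3%, 38.0% and 38.2% of members without one. In non-members with a transgene UMI it was 5.20%, 3.81% and 0.218% in the same tumors, and in microglia-marked cells 2.19%, 2.38% and 0.818%. Members with a transgene UMI therefore lay between members without one and other transgene-bearing cells in all 3 tumors.

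Genes of committed, differentiating precursors showed larger differences. Of 9 tested, 0 were higher and 8 lower, with a median log2 difference of -1.74. Bcas1, a marker of cells about to form myelin, was at 484.2, 1281 and 201.7 CPM without and 82.37, 330.0 and 4.629 CPM with a transgene UMI in tumors 2, 4 and 5, lower in each pair (log2 -2.33 ± 0.26; edgeR adjusted p = 0.000186). Fyn, a kinase of early myelination, fell from 520.5, 1325 and 486.6 CPM to 170.5, 323.9 and 101.8 CPM (log2 -1.85 ± 0.19). Bmp4, the calcium channel Itpr2, the focal adhesion protein Tns3, the deacetylase Sirt2 and the myelin regulator Myrf were lower as well, with log2 differences of -2.20, -1.74, -1.65, -2.06 and -1.27. Cnksr3 was lower over the 3 mice (log2 -1.09 ± 0.32) but not in tumor 2, where it was at 7.254 CPM without and 9.061 CPM with a transgene UMI. Tcf7l2 was the 1 gene of the list not called.

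Myelin genes followed. Of 8 mature oligodendrocyte genes tested, 6 were lower and 0 higher, with a median log2 difference of -2.24. Mbp, a basic protein that compacts myelin, was at 1260, 1585 and 362.0 CPM without and 100.5, 356.7 and 78.69 CPM with a transgene UMI (log2 -2.65 ± 0.28; edgeR adjusted p = 0.000147). Cldn11 (-2.78), Cnp (-2.33) and Mog (-2.16) were lower in each pair, and Mag (-1.94) passed narrowly with an edgeR adjusted p of 0.0493. Leaving out tumor replicate 4 moved Cldn11 to -4.72 and Mag to -5.74, and without tumor replicate 2 Mag was at -0.91 and not called. In the shallow barcodes of tumors 2, 4 and 5 Mbp was at 1130, 500.6 and 788.9 CPM, and the part of shared RNA in these values was not tested.

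Of the 10 genes outside the rule with the smallest p among those lower in cells with a transgene UMI, Nfasc, whose product joins myelin loops to the axon, was at 272.0, 396.3 and 216.6 CPM without and 37.07, 95.24 and 37.03 CPM with a transgene UMI (log2 -2.32 ± 0.20; edgeR adjusted p = 0.000102). Gjc3, an oligodendrocyte connexin, was at 183.2, 380.3 and 237.3 CPM without and 19.77, 85.91 and 18.52 CPM with one (log2 -2.54 ± 0.24). Tubb4a, a tubulin abundant in oligodendrocytes, Gltp, a glycolipid carrier, Bfsp2, Chn2, Tmem108 and Phyhipl had log2 differences of -2.51, -1.98, -2.60, -2.21, -2.07 and -2.38. Sirt2 and Lhfpl3, given above, complete the 10. All 10 were lower in each of the 3 mice, which is in part how they were chosen, since their direction had to hold with any 1 mouse left out. They were among the genes still called without tumor replicate 4, as were Bcas1, Fyn, Mbp, Cnp, Cldn11, Mag, Tnr, Matn4 and Pcdh15. Sox10 was not (log2 -1.25 without that mouse).

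The 9 rule genes, which were fitted and not counted, lay the same way as a description. Gpr17 was at 68.91, 601.1 and 222.5 CPM without and 12.36, 185.2 and 32.40 CPM with a transgene UMI in tumors 2, 4 and 5. Pdgfra was at 230.3, 262.2 and 821.8 CPM without and 59.31, 110.3 and 148.1 CPM with one, so the receptor of dividing precursors and the marker of committed ones were both lower. Olig2 was at 226.7, 511.0 and 459.9 CPM without and 205.9, 409.9 and 263.8 CPM with one, and Cspg4 at 261.1, 284.2 and 373.8 against 257.0, 210.2 and 138.9 CPM. Olig2 and Cspg4 thus differed least in tumor 2, the mouse in which 50.8% of members with a transgene UMI carried none of the 5 narrower rule genes.

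**Figure D4:**
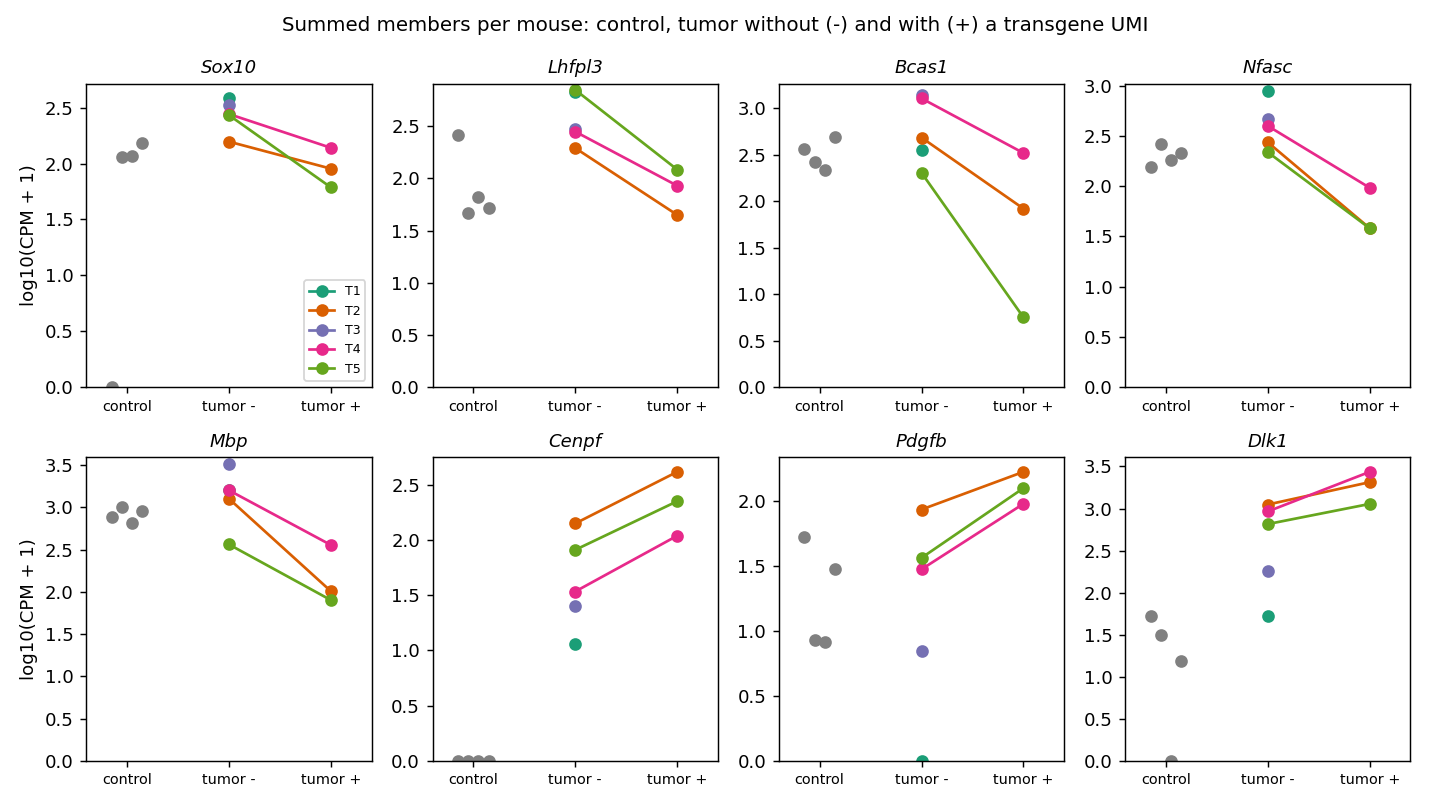
Levels of 8 genes outside the rule as log10(CPM + 1) in the summed members of each mouse, for the 4 controls (grey), the 5 tumors' members without a transgene UMI (tumor -) and, joined by lines, the members with one in tumors 2, 4 and 5 (tumor +). Sox10, Lhfpl3, Bcas1, Nfasc and Mbp fall along each line, while Cenpf, Pdgfb and Dlk1 rise along each line.

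Cell cycle genes were in part higher in members with a transgene UMI. Of 21 tested, 13 were higher, 0 lower and 8 not called, with a median log2 difference of 1.15. Of all genes tested 5.87% were higher. Cenpf, a kinetochore protein of dividing cells, was at 139.6, 33.06 and 80.11 CPM without and 411.0, 107.8 and 222.2 CPM with a transgene UMI (log2 1.67 ± 0.17; edgeR adjusted p = 0.000129). Mki67, the proliferation marker, was at 166.8, 33.82 and 74.17 CPM without and 277.6, 104.3 and 152.8 CPM with one (log2 1.23 ± 0.20). Both were higher in each pair. Without tumor replicate 4 the call remained for Cenpf alone, with log2 differences of 0.89 for Mki67, 0.89 for Tpx2 and 1.83 for Mcm2. The mitotic genes Cdk1 (1.51), Birc5 (1.40), Top2a (1.14), Ube2c (1.19) and Tpx2 (1.39) were called, and outside the list Pbk, a mitotic kinase (1.44), and Cdc20, an activator of anaphase (1.86), were among the 10 genes higher with the smallest p. Of the replication genes Mcm2 was called (1.15), while Pcna, Mcm3, Mcm4, Mcm5, Mcm6, Mcm7, Tyms and Rrm2 were not. Nusap1 was at 32.64 CPM without and 23.14 CPM with a transgene UMI in tumor 5, against the direction of the call.

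The share of members with cycle gene UMIs was compared in the same 3 mice and set against microglia-marked cells, which can also divide. After thinning to 2000 UMIs, UMIs of 2 or more of the 21 cycle genes were present in 39.5%, 23.8% and 48.0% of members with and in 25.8%, 20.4% and 27.9% of members without a transgene UMI in tumors 2, 4 and 5. The mean difference was 12.4 ± 8.41 percentage points (SD, n = 3; two-sided exact sign-flip permutation p = 0.25, the smallest that 3 mice allow). Thinned microglia-marked cells of these tumors met the same cut in 25.0%, 21.9% and 39.4%, with 35.9%, 25.5% and 50.4% of those with and 24.0%, 18.9% and 39.2% of those without a transgene UMI. Members without a transgene UMI were thus below the microglia-marked cells in tumors 4 and 5, members with one were above the microglia-marked cells in all 3 but below those of them with a transgene UMI in tumors 4 and 5, and the higher share with a transgene UMI was seen in microglia-marked cells as well. Thinned non-members with a transgene UMI met the cut in 40.2%, 26.1% and 50.7% in tumors 2, 4 and 5, above members with one in each of the 3. When cells were thinned before the rule was applied, tumor 4 alone had at least 10 members in each arm, and its difference was 1.66 percentage points.

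Between groups, the share over all members was 0%, 33.8%, 8.33%, 22.6% and 33.3% in tumors 1 to 5 and 2.70%, 0% and 2.86% in controls 2 to 4. Control 1 had 3 members of 2000 UMIs and was left out. The means were 19.6% ± 15.1 (SD, n = 5) and 1.85% ± 1.61 (SD, n = 3), a difference of 17.8 percentage points (two-sided exact permutation p = 0.107, adjusted over 4 tests 0.201). Tumor 1, with 21 such members, lay among the controls, and the other 4 tumors lay above them. Microglia-marked cells, with median depths given above, met the cut in 5.33%, 25.0%, 5.88%, 21.9% and 39.4% in tumors 1 to 5 and in 2.38%, 2.81% and 2.24% in controls 2 to 4, so members of tumors 1 and 5 were below that level and tumor 4 was near it. Unthinned, the difference between groups was 30.4 percentage points with an exact permutation p of 0.0476. With cells thinned before the rule was applied it was 10.7 percentage points with an exact permutation p of 0.25. Summed cycle genes in shallow barcodes were at 891.0, 938.4 and 1482 CPM in tumors 2, 4 and 5 and at 106.8 to 114.2 CPM in controls. The part of shared RNA in these shares was not tested, and the shares are not read as a measure of dividing members.

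Growth factor genes and their receptors were in part higher with a transgene UMI. Of 9 genes tested in the list of mitogens and receptors, 5 were higher and 1 lower, with a median log2 difference of 0.70. Of all genes tested 5.87% were higher and 6.22% lower. Pdgfb, a ligand of the PDGF receptors, was at 85.23, 28.88 and 35.60 CPM without and 167.2, 94.44 and 125.0 CPM with a transgene UMI (log2 1.52 ± 0.20; edgeR adjusted p = 0.000575). Pdgfa, the main ligand of Pdgfra, was at 455.2, 97.65 and 65.27 CPM without and 696.9, 145.1 and 254.6 CPM with one (log2 0.92 ± 0.22). The receptors Egfr (1.07), Fgfr1 (0.88) and Fgfr3 (0.70, but -0.17 with the fusion sequence alone) were higher and the neuregulin receptor Erbb4 was lower (-0.94 ± 0.23). Fgf3, an embryonic fibroblast growth factor outside the list, was at 126.9, 117.0 and 35.60 CPM without and 260.3, 342.3 and 185.2 CPM with one (log2 1.55 ± 0.21).

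Among the other genes higher with the smallest p, Ngfr, the low-affinity neurotrophin receptor, was at 212.2, 38.00 and 50.44 CPM without and 484.3, 144.5 and 199.0 CPM with a transgene UMI (log2 1.70 ± 0.20; edgeR adjusted p = 0.000204). Lhx1, a homeobox factor of embryonic patterning, was at 65.28, 38.38 and 35.60 CPM without and 129.3, 106.8 and 115.7 CPM with one (log2 1.41 ± 0.19). Zfp423, a zinc finger factor (1.50), Six3os1, transcribed beside the forebrain factor Six3 (1.70), and Mgst1, a glutathione transferase (1.29), were also called. The 10 genes were chosen to keep their direction with any 1 mouse left out, so their direction by mouse is no further support. Without tumor replicate 4 only Cenpf of the genes higher was still called, with log2 differences of 1.30 for Pdgfb and 1.50 for Ngfr.

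Of 8 genes tested in a list of fusion markers and targets, compiled with earlier results of these samples known, 7 reached the filter level (11.3 CPM) in both arms, of which 3 were higher and 0 lower, against 5.84% higher and 5.91% lower of all genes that did, with a median of 0.63. Lmx1b, a homeobox factor, was at 29.02, 14.82 and 20.77 CPM without and 41.19, 49.89 and 87.95 CPM with a transgene UMI (log2 1.52 ± 0.29; edgeR adjusted p = 0.00416). Ephb2, a receptor for ephrins (0.84 ± 0.23), and Notch1 (0.63 ± 0.16) were called, but Notch1 was not without tumor replicate 2. Gli2, an effector of hedgehog signals, reached the filter level only with a transgene UMI, so its log2 difference of 1.59 is a description. It turned direction with the fusion sequence alone (-0.20). Ccnd1, Rela, Jag1 and Sox2 were not called. Ccnd1 was at 761.7, 647.5 and 222.5 CPM without and 1176, 737.1 and 444.4 CPM with one (edgeR adjusted p = 0.0505), and Sox2 at 214.0, 223.4 and 201.7 against 214.2, 202.1 and 189.8 CPM (edgeR adjusted p = 0.989, log2 -0.01 ± 0.16). Of 5 NF-kB targets tested 1 was higher, the adhesion molecule Icam1 (1.21 ± 0.24), with a list median of 0.41. Nfkbia did not pass (edgeR adjusted p = 0.0645).

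Igf2, H19 and Dlk1, imprinted genes active in the embryo, were 3 genes called higher of 5 tested in their list, with a median of 1.17. Of all genes that reached the filter level in both arms 5.84% were higher. Igf2, which encodes a growth factor, was at 2176, 1304 and 537.0 CPM without and 3598, 3097 and 1449 CPM with a transgene UMI (log2 1.20 ± 0.19; edgeR adjusted p = 0.00175). Dlk1 was at 1115, 922.5 and 652.7 CPM without and 2058, 2731 and 1134 CPM with one (log2 1.17 ± 0.19). Their RNA was abundant elsewhere in these tumors as well: Dlk1 was at 587.8, 2478 and 515.4 CPM in microglia-marked cells and 676.4, 1810 and 542.7 CPM in shallow barcodes of tumors 2, 4 and 5. In tumor 4 members without a transgene UMI thus had less Dlk1 than shallow barcodes did, and members with one more.

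Smaller lists are set beside all genes that reached the filter level in both arms, of which 5.84% were higher and 5.91% lower. Of 9 Notch pathway genes 3 were higher, Notch1, Notch2 (1.06) and the effector Hes5 (1.31), with a median of 0.36. Of 11 astrocyte and radial glia genes 4 were higher, the glutamate transporter Slc1a3 (0.65), Aldoc (0.53), Sox9 (0.74) and Hes5, with a median of 0.43. Without tumor replicate 2 Hes5 was still called (1.74). Slc1a3 (0.61), Aldoc (0.51), Sox9 (0.81), Notch1 (0.64) and Notch2 (1.13) were not. Of 10 immediate early and heat shock genes 6 were higher, with a median of 0.84. Fos was at 275.6, 323.0 and 97.91 CPM without and 313.0, 710.9 and 199.0 CPM with a transgene UMI (0.83), while Atf3 and Ier2 were higher in tumors 2 and 4 and lower in tumor 5. Of 12 MHC class I and interferon genes 1 was higher (8.33%), Irf1 (0.93), with a median of 0.08. That is near the share of all genes and is not a result about the list.

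In the summed counts 4 of 7 microglia markers tested were lower with a transgene UMI, against 5.91% of all genes that reached the filter level in both arms. They were C1qa (-0.91), C1qb (-0.77), C1qc (-0.85) and Ctss (-0.91, but 0.073 with the fusion sequence alone), with a list median of -0.77. By cell, 4 or more microglia markers were present in 12.7%, 17.1% and 0% of members with one in tumors 2, 4 and 5. Among members without one the shares were 8.60%, 14.2% and 6.80%, so tumors 2 and 4 went the other way. Without tumor replicate 4 the 4 were at -1.51, -1.28, -1.72 and -1.81 and lost the call. Of 8 neuron markers 1 was higher, Rbfox3 (0.93), and 1 lower, Syt1 (-1.18), with a median of 0.11, which is not a result about the list. Of 7 neuroblast, 4 endothelial, 3 pericyte, 1 ependymal and 1 erythroid genes tested 0 passed in edgeR, and the 1 fibroblast gene tested, Col1a1, was higher (1.13). Without members that had 4 or more microglia, endothelial or neuron markers, 709 of 5921 genes tested were called in place of 1127 of 9319.

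Tumor members without a transgene UMI, set against members of control brains, differed in nearly as many genes as they did not. The comparison sets tumor members in which no transgene UMI was seen against control members. Of these control members 97.6% also held 4 or more neuron markers, as nearly all kept control cells did. Mature oligodendrocyte markers, 4 or more, were held by 56.8% of these members. Olig2 was present in 30.4% of them, so their sums are not those of precursors alone. In edgeR 1372 of 3033 genes passed, 45.2% of those tested, with 716 higher (23.6%) and 656 lower (21.6%) in tumors. All tumor members against control members gave 1388 of 2974 genes, 46.7%, with 744 higher (25.0%) and 644 lower (21.7%). Both comparisons use the same 4 controls. A gene was tested when it reached 72.6 CPM in at least 4 mice. In the first comparison 200 genes reached it in tumors only, of which 89.0% were called higher, and 158 in controls only, of which 96.2% were called lower. In the second these were 219 genes (91.8%) and 183 (99.5%). Such genes could enter the test only where they were high, so they are left out of the counts and medians of lists below, and their values are given as a description. Among the 2675 and 2572 genes that reached the level in both groups, 20.1% and 21.1% were called higher and 18.8% and 18.0% lower. Tumor and control ranges did not overlap for 32.0% of the genes tested in the first and 33.5% in the second. With limma voom the split was 424 higher and 760 lower in the first and 334 higher and 708 lower in the second. Summed members held 19347 UMIs in control 1, against 132837 to 137797 in controls 2 to 4. Without control replicate 1 the second comparison gave 2206 calls of 6432 genes tested, and without tumor replicate 1 it gave 2315 of 5560. More genes passed the filter in these refits than the 2974 tested with all mice.

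Genes of the precursor state outside the rule were higher in tumors or were not called. Of 12 that reached the filter level in both groups, 6 were higher in tumor members without a transgene UMI, 0 lower and 6 not called, with a median log2 difference of 0.83 against 0.04 over all such genes. Over all tumor members 5 of 12 were higher and 0 lower, with a median of 0.60 against 0.08. Of all such genes 20.1% and 21.1% were higher in the 2 comparisons. Sox10 was at 0, 112.9, 116.4 and 152.4 CPM in controls 1 to 4 and at 384.2, 156.0, 335.4, 276.2 and 270.0 CPM in tumor members without a transgene UMI, so the lowest tumor was above the highest control (log2 1.23 ± 0.36 (SE); edgeR adjusted p = 0.0136). Over all tumor members Sox10 was at 376.8, 109.9, 308.6, 173.4 and 188.0 CPM, overlapped the controls and did not pass (edgeR adjusted p = 0.0835). Exactly 4 rule genes were present in 81 of 125 control members, against 248 of 852 tumor members without a transgene UMI. With 4 rule genes, Sox10 UMIs were present in 25.0% to 26.9% of cells in controls 2 to 4 and 20.0% to 45.2% in tumors. With 5 they were 50.0% to 55.6% and 33.3% to 55.9%, and with 6 or more 42.9% to 66.7% and 64.1% to 73.7%. These controls had 3 to 27 such cells, and tumor shares cover all members. The part of rule-gene number in these values was not tested. Cspg5, a proteoglycan, was at 620.3, 504.4, 749.2 and 551.5 CPM in controls and at 1661, 1077, 1248, 1114 and 1647 CPM in members without a transgene UMI (log2 1.14 ± 0.28). Ncan, a matrix proteoglycan, Sox8, a relative of Sox10, and Lhfpl3 were higher in both comparisons.

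Committed precursor and myelin genes were called about as often as genes in general. Of 7 committed genes tested in members without a transgene UMI, 2 were higher and 0 lower, Fyn (log2 2.23 ± 0.49) and Sirt2 (3.08 ± 0.47), with a median of 1.18. With all tumor members the same 2 of 6 were higher, with a median of 0.61. Bcas1 was at 361.8, 263.5, 218.2 and 486.2 CPM in controls and at 353.0, 484.2, 1402, 1281 and 201.7 CPM in members without a transgene UMI, and did not pass (edgeR adjusted p = 0.0708). Tumors 3 and 4 were above the controls, tumors 1 and 2 within their range and tumor 5 below them. Of 8 mature oligodendrocyte genes 2 were higher, Cnp (2.18) and the tight junction gene Cldn11 (2.35), with a median of 0.37, and over all tumor members 1 of 7 was, Cnp, with a median of -0.05. Set against the 20.1% and 21.1% of all such genes that were higher, these counts are not a result about the lists.

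Among the 20 genes with the smallest p in the comparison without a transgene UMI were Gpr37l1, Cd9 and Fabp7. Fabp7 belongs to the astrocyte and radial glia list, of which 1 gene was higher and 1 lower of 5, with a median of -0.07. Gpr37l1, a glial receptor, was at 155.1, 97.86, 65.46 and 94.34 CPM in controls and at 394.5, 547.7, 640.7, 682.0 and 486.6 CPM in tumors (log2 2.58 ± 0.31; edgeR adjusted p = 8.1e-05). Cd9, a tetraspanin of precursors, was at 103.4, 158.1, 58.19 and 326.6 CPM in controls and at 1910, 1674, 3025, 4586 and 2133 CPM in tumors (log2 3.94 ± 0.50). Fabp7, the brain lipid-binding protein of radial glia and early precursors, was at 258.4, 97.86, 72.74 and 65.31 CPM in controls and at 581.4, 895.8, 683.0, 1467 and 1095 CPM in tumors (log2 3.32 ± 0.42). The progenitor factor Sox4 (3.02 ± 0.40) and the sulfatase Sulf2 (2.11 ± 0.28) were higher in every tumor than in any control. So was Sox2, which reached the filter level in tumors only and is given as a description.

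Other genes with the smallest p were also different in cells of another type. Ppp1r14b, a phosphatase inhibitor, was at 0, 75.28, 36.37 and 72.57 CPM in control members and at 1640, 1268, 1157, 1424 and 1329 CPM in tumor members without a transgene UMI (log2 4.55 ± 0.39; edgeR adjusted p = 1.5e-05). In microglia-marked cells Ppp1r14b was at 70.13 to 89.38 CPM in controls and at 262.8 to 820.4 CPM in tumors. Dbi, a carrier of acyl-CoA, was at 509.1 to 671.9 CPM in control members and 2696 to 5088 CPM in tumor members, and in microglia-marked cells at 433.4 to 486.3 and 550.5 to 2407 CPM. Ssr2 and Cdc42se1, which reached the filter level in tumors only, complete the 10 genes higher (log2 2.80 and 3.36). Over all tumor members the 10 were Ppp1r14b, Dbi, Ssr2, Gpr37l1, Sox2, Jun, Fos, the matrix protein Mfap2, the actin-binding Pfn1 and the chromatin protein Hmgn2. Of these Ssr2, Sox2, Fos, Mfap2 and Hmgn2 reached the filter level in tumors only. Mfap2 was at 0, 0, 0 and 7.257 CPM in controls and at 79.33, 526.2, 385.2, 274.3 and 311.0 CPM in tumors.

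All 7 neuron markers that reached the filter level in both groups were lower in tumor members in both comparisons, with medians of -3.15 and -2.80. Snap25, a presynaptic protein, was at 878.7, 1370, 1033 and 1132 CPM in control members and at 228.4, 77.98, 87.64, 7.979 and 86.04 CPM in tumor members without a transgene UMI. In shallow barcodes it was at 1468 to 1817 CPM in controls and 8.14 to 898.8 CPM in tumors. The genes with the smallest p among those lower were Nme7, Chn1, Mef2c, Ppp3ca, Kalrn, Vsnl1, Synj1, Ywhah, Fbxl16 and Arf3 in the comparison without a transgene UMI, with log2 differences of -2.10 to -4.73, and over all tumor members Nme7, Arf3, Chn1, Atp2b2, Kalrn, Ppp3r1, Ppp3ca, Synj1, Mef2c and Nbea. Nme7, Kalrn and Synj1 in both comparisons, and Fbxl16 in the first, reached the filter level in controls only. Ppp3ca and Ppp3r1 encode the subunits of calcineurin, and Synj1 and Kalrn act at synapses. Nme7, a kinase of cilia and centrosomes, was at 878.7, 474.3, 603.7 and 529.8 CPM in control members and 41.53, 43.52, 18.13, 9.499 and 26.70 CPM in tumor members, and at 843.4 to 1071 against 13.95 to 70.15 CPM in shallow barcodes. Of all genes lower in tumor members without a transgene UMI, 43.4% were at least 2-fold lower in the shallow barcodes of tumors 1, 2, 4 and 5 than in those of controls too, against 14.1% of all genes tested, and of those higher 26.0% were at least 2-fold higher in them, against 10.9%. Ttr, made by the choroid plexus, was at 1189, 963.6, 1477 and 1212 CPM in control members and at 83.06 CPM in tumor 1 and 0 in the other 4 tumors, with 1552 to 2449 CPM in control shallow barcodes. The part of shared RNA in these differences was not tested.

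Of 4 cholesterol synthesis genes that reached the filter level in both groups, 3 were higher and 0 lower in both comparisons, with medians of 1.20 and 1.10. Of all genes that did so 20.1% and 21.1% were higher. Idi1, an isomerase of isoprenoid units, reached the filter level in tumors only and is given as a description. It was at 51.69, 45.17, 43.64 and 21.77 CPM in controls and at 51.91, 130.6, 160.2, 109.0 and 189.9 CPM in tumor members without a transgene UMI, with tumor 1 level with control 1. In microglia-marked cells Idi1 was at 23.61 to 36.86 CPM in controls and at 18.87 to 46.43 CPM in tumors. Fdps and Cyp51 of the same pathway had log2 differences of 1.30 and 1.10, and Fdps in tumor 1 at 31.15 CPM was below the controls.

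Of 13 MHC class I and interferon genes, B2m, the light chain of class I molecules, was the 1 that reached the filter level in both groups, and it was higher in both comparisons (log2 1.80 and 1.81). H2-D1, a class I heavy chain that reached it in tumors only, was at 51.69, 37.64, 43.64 and 29.03 CPM in controls and at 238.8, 259.3, 142.0, 445.3 and 139.4 CPM in tumor members without a transgene UMI. In microglia-marked cells H2-D1 was at 73.79 to 226.0 and 679.2 to 1462 CPM. Of microglia markers 2 of 5 were higher, C1qa and C1qb, with a median of 1.17, and over all tumor members 1 of 3, C1qb, with a median of 0.89. With 20.1% and 21.1% of all such genes higher, these counts are not a result about the list.

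Of the immediate early and heat shock genes, Jun and Egr1 reached the filter level in both groups. Jun was called in both comparisons and Egr1 over all tumor members, and Fos and Junb reached the level in tumors only. Jun was at 0, 52.70, 43.64 and 87.08 CPM in controls and at 602.2, 460.6, 293.1, 308.5 and 201.7 CPM in tumors. In microglia-marked cells Jun was at 100.4 to 250.5 CPM in controls and 155.8 to 1316 CPM in tumors. Of 10 fusion markers and targets, Ccnd1 was the 1 that reached the filter level in both groups, and it was higher in both comparisons (log2 2.82 and 3.17), while Sox2 and Notch1 reached it in tumors only. Ccnd1, a driver of the cell cycle, was at 155.1, 67.75, 50.91 and 65.31 CPM in controls and at 342.6, 761.7, 411.0, 647.5 and 222.5 CPM in members without a transgene UMI. Of cycle genes 1, Pcna, had enough counts to be tested and did not pass (edgeR adjusted p = 0.224 and 0.159).

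Igf2, Dlk1 and H19 reached the filter level in tumors only, and their values are a description. Igf2 was at 0, 37.64, 21.82 and 29.03 CPM in controls and at 41.53, 2176, 123.9, 1304 and 537.0 CPM in tumors, with tumor 1 near the controls. Dlk1 was at 51.91 CPM in tumor 1 and at 51.69 CPM in control 1. Over all tumor members H19 was at 39.67, 1766, 433.9, 982.2 and 359.8 CPM in tumors, and it had 0 UMIs in the summed control members, which makes it at least 102.1-fold higher on average than 3 UMIs over all control members would be. Igf1r, the receptor in the same list, was not called in either comparison.

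In the remaining lists, Slc1a2, an astrocyte glutamate transporter, was lower in both comparisons (log2 -1.21 ± 0.41 and -1.33 ± 0.45), and Vim, an intermediate filament of radial glia that reached the filter level in tumors only, was over all tumor members at 0, 0, 14.55 and 14.51 CPM in controls and 19.83 to 603.8 CPM in tumors. Of 5 astrocyte and radial glia genes that reached it in both groups, without a transgene UMI 1 was higher and 1 lower, with a median of -0.07, and over all tumor members 1 was higher and 1 lower, with a median of 0.36. Pdgfa was the 1 of 3 mitogen genes called in each comparison, and of the Notch genes Hes5 reached the level in both groups and was not called. Stmn2, of young neurons, was the 1 of 2 neuroblast genes called, lower in both. Of all such genes 20.1% and 21.1% were higher and 18.8% and 18.0% lower, so these small counts are not a result about the lists. Of the erythroid list 1 gene was tested and did not pass in either. No gene of the NF-kB, MHC class II, endothelial, pericyte, fibroblast or ependymal lists had enough counts to be tested between tumors and controls.

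**Figure D5:**
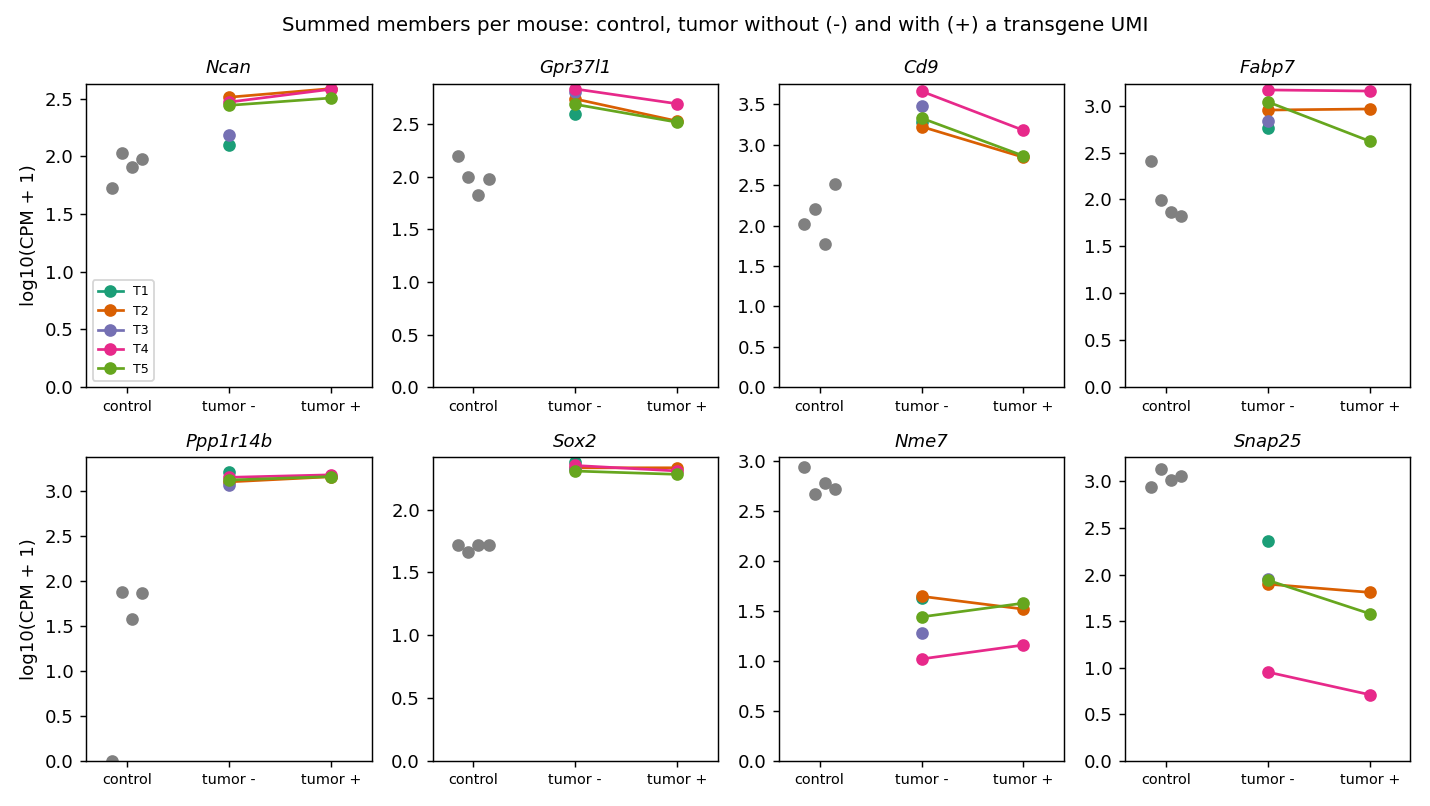
Levels of 8 genes outside the rule as log10(CPM + 1) in the summed members of each mouse, for the 4 controls (grey), the 5 tumors' members without a transgene UMI (tumor -) and, joined by lines, the members with one in tumors 2, 4 and 5 (tumor +). Ncan, Gpr37l1, Cd9, Fabp7, Ppp1r14b and Sox2 lie higher in the 5 tumors without a transgene UMI than in the 4 controls, and Nme7 and Snap25 lie lower.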

How the data were processed

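Droplet 5′ RNA libraries of 5 tumor and 4 control mice were analyzed. The deposited matrices hold raw UMI counts per gene and barcode, which the authors made with Cell Ranger on mm10 with added transgene sequences. The matrix headers name version 6.1.2 and the submitters' processing notes version 7, with Scanpy 1.8.2. For control replicate 4 the gene list is shorter than the matrix (32287 names for 32289 rows), so the names of the remaining libraries were used for it, and its barcodes, also listed short, did not enter the check for shared barcodes. Summed member UMIs ranged from 19347 to 10128361 per mouse and set the precision of each value, and intervals cover counting error only.

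Members and gene lists were chosen with earlier results of these data known. Counts were summed over members per mouse and tested with edgeR 4.0.16 (TMM, filterByExpr, quasi-likelihood, R 4.3.3), with Benjamini-Hochberg adjustment over all genes tested at 0.05. CPM values are counts scaled to a total of 1e6 per sum. The 9 rule genes and the 3 transgene sequences were fitted and left out of counts. Mice with at least 10 cells entered a fit. The comparison of members with and without a transgene UMI had the mouse as a block, since both sums come from 1 animal. Their deviations from the group means correlated across genes within mice (r = 0.482, 0.589 and 0.385). Between mice r was -0.278 to -0.182. Deviations from the mean of 3 mice sum to 0, so negative values between mice follow from the positive ones within and are no further support for the block. Shares were compared by two-sided exact permutation over mice (numpy 2.4.6, scipy 1.17.1, pandas 2.3.3, python 3.11.15). Where stated, cells were thinned to 2000 UMIs and shallower cells left out. Doublets were kept, and removed (Scrublet, 0.8% per 1000 barcodes) as an alternative.

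Named genes were those of the lists, with a few of each by smallest p, and per comparison the 10 higher and 10 lower genes with the smallest p whose direction held when any 1 mouse was dropped, without gene models, mitochondrial and ribosomal protein genes. Mice are labelled as separate samples, and nothing further on litters or days was used. On simulated counts in which 200 genes had a log2 change of 1.5, edgeR called 59.0% of them for all tumor members against controls (2684 genes), 66.0% for members without a transgene UMI against controls (2862 genes) and 91.0% between members with and without one (8881 genes). Alternatives tried were DESeq2 1.42.0, limma 3.58.1 voom, other cell filters, thinning, the mouse block, stricter rules and leaving out each mouse. Some genes are not reported here.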

Additional observations from a re-analysis of the deposited data

Results flagged for a closer look

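In groups of 4 or 5 mice, 77 sets of values were examined for 1 mouse far from the others, a gap that chance gives in about 1 of 20 sets, and 9 were found. The share of kept cells that were members was 15.86% in tumor 4 and 1.054% to 3.679% in the other tumors. The share of members with a Sox10 UMI was 0% in control 1, with 11 members, and 32.43% to 37.14% in the other controls. Sox2 was at 45.17 CPM in members of control 2 and at 50.8 to 51.69 CPM in the others, a gap of small size. Mfap2 was at 7.257 CPM in control 4 and 0 in the others. Fabp7 was at 258.4 CPM in control 1 and at 65.31 to 97.86 CPM in the others.

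The remaining 4 sets concern genes of neurons. Chn1 was at 119.0 CPM in all members of tumor 1 and at 37.12 to 51.55 CPM in the other tumors, and in members without a transgene UMI at 114.2 CPM and 45.33 to 62.3 CPM. Vsnl1 was at 83.06 CPM in members of tumor 1 without a transgene UMI and at 5.319 to 23.73 CPM in the others. Kalrn was at 27.2 CPM in such members of tumor 3 and at 5.934 to 10.88 CPM in the others. Neuron markers, at least 4 in a cell, were present in 36.7% of members in tumor 1, and their part in these values was not tested.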

How the results depend on the processing

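The higher member share in tumors passed an exact permutation p of 0.05 in cells thinned to 2000 UMIs (difference 3.06 percentage points) and without any 1 tumor. It did not pass without any 1 control (exact permutation p = 0.321 to 0.357). Over cells without 4 or more neuron markers, which numbered 22 to 356 in controls, it did not pass either (3.32 points, exact permutation p = 0.476). The difference ran from 1.40 to 5.10 points over the mice left out. Without any 1 tumor that p was 0.0286, the value that 4 against 4 mice give whenever the groups do not overlap. The difference in the share of members with cycle gene UMIs passed unthinned (30.4 points), was 10.7 points in cells thinned before the rule, and ran from 14.2 to 22.7 points over the mice left out. That between members with and without a transgene UMI ran from 8.53 to 16.9, and the excess of transgene UMIs in members from 11.9 to 22.9. Calls for all tumor members against controls numbered 1095 to 2315 with 1 mouse left out, 820 in thinned sums and 3091 with no filter on low counts. The genes tested numbered 2669 to 6437, 2082 and 20235 in these settings. For tumor members without a transgene UMI calls numbered 1081 to 1964, 765 and 3140. Between members with and without a transgene UMI calls numbered 52 (without tumor replicate 4) to 1509, 482 with DESeq2, 347 with the fusion sequence alone and 0 with no replicate block. Where fewer genes passed the filter they numbered 466 of 3915 tested in thinned sums, 481 of 5147 with at least 5 rule genes and 709 of 5921 without cells bearing other markers. With the fusion sequence alone Gli2 (-0.20), Fgfr3 (-0.17) and Ctss (0.073) turned direction, and the cause was not tested.

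Replicate numbers did not pair tumors with controls (r = -0.0442 to 0.154 and -0.0255 to 0.179 for equal numbers), and a block by number gave 1277 and 1348 calls. Of 60, 59 and 84 described genes that were called, 25, 17 and 84 lost the call in at least 1 refit. No refit was possible against controls without cells bearing other markers or with at least 50 members, since too few control mice remained. Leaving out members with immune or endothelial markers was added after seeing the data. Control members were few and shallow, which limits every comparison with them.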

Other observations

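The TdTomato reporter of the control mice was found in 0%, 2.70%, 2.38% and 20.0% of members in controls 1 to 4 and in 5.21%, 7.34%, 4.34% and 17.9% of microglia-marked cells. Control 4 was the highest in both. Members therefore did not carry the reporter above the level of microglia-marked cells in controls 1, 2 and 3, and 7 of 35 members carried it in control 4. No kept tumor cell had a reporter UMI, although the study's methods describe dissection guided by TdTomato signal, so whether the tumor mice also carried the reporter cannot be told from these counts.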
